A study of Mus musculus with 2 samples.

Results

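The HoxD Inv(TpSB1-Itga6) allele turns around a segment of 2.4 Mb of mouse chromosome 2, and 10 genes carried by that segment are described here. They are Pdk1, Rapgef4, Zak (listed as B230120H23Rik, GENCODE name Map3k20), Cdca7, Ola1, Cir1, Scrn3, Wipf1, Chn1 and Atf2, given in their order on the wild-type chromosome. They were picked by name and chromosome from a list drawn up with earlier results of these data known, not by a threshold on their levels, and leave out other genes of the segment such as Sp9 and Chrna1. They take up 50 of the 64053 listed transcripts, or 10 of 23157 genes once transcripts were summed per gene. GENCODE places 23 other listed genes between Itga6 and Lnp, the genes annotated on either side of the segment. The TpSB1 breakpoint lies between Atf2 and Lnp, and its coordinate was not used here.

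Poly(A)-selected, strand-specific RNA-seq had been made from distal forelimbs of mouse embryos (strain C57Bl6CBAF1) at E12.5, the stage when the digits are being laid down. There was 1 library for wild type and 1 library for embryos that the study's methods give as homozygous for the inversion, each from a pool of 3 forelimb pairs. The sample titles read invDFL and wtFL, so that the wild-type title does not say distal, although its column of deposited values reads wtDFL. Apart from this wording, the labels give no difference between the groups but the allele. Since each genotype had 1 library, the differences given here have no replicate check and no test of the genotype. Values are normalized reads, that is, the reads of a transcript scaled by the authors with 1 size factor for each library, with 9280660 reads behind the wild-type library and 9466154 behind the inversion library.

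An inversion leaves each gene inside it attached to its own promoter and close neighbours, while the genes near its ends come to face other flanking DNA. In wild-type limbs, the gene-poor DNA between Atf2 and HoxD holds digit enhancers that act on the posterior Hoxd genes. On the inverted chromosome the Pdk1 end of the segment is turned towards HoxD, and the Atf2 end is turned towards Dlx1 and Dlx2. The 10 genes are mostly broadly used ones. Pdk1 and Ola1 belong to energy metabolism and the handling of nucleotides, Rapgef4, Zak, Wipf1 and Chn1 to signalling and the cytoskeleton, Cdca7, Cir1 and Atf2 to chromatin and transcription, and Scrn3 to the secernins, a little-studied family.

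The 2 pools were not alike in other respects. The 4 Y-linked genes of the sex list summed to 836 normalized reads in wild type and 2785 with the inversion, and Xist had 2607 and 13 reads. All 7 skeletal muscle genes had a positive log2 ratio, their sum being 1099 and 2162 normalized reads, and 4 of 5 cartilage genes did so, with sums of 12343 and 15177. The 6 distal forelimb genes summed to 7641 and 6712, mostly through Hoxd13 (2292 and 1503). Lhx2 (log2 ratio -0.43), Msx1 (-0.22) and Fgf8 (-0.18, 64 and 58 reads) were also lower, while Tbx5 (0.20) and Hoxa13 (0.12) went the other way. The proximal limb list summed to 1048 and 1259 through Shox2 alone (381 and 715), as Meis1 and Meis2 had ratios of -0.14 and -0.34. The hindlimb genes Pitx1 and Tbx4 summed to 480 and 418. The sums of the other lists were 15517 and 12918 for red cells, 3615 and 3047 for ectoderm, 3552 and 3376 for endothelium, 286 and 361 for Schwann cells, 271 and 344 for neurons (Gad2, Snap25 and Elavl3 having at most 4 reads each) and 195 and 242 for 4 macrophage and leukocyte genes. Transcripts annotated as retained introns were higher in the inversion library over the whole table, with a median log2 ratio of 0.20 and with 2017 of 7715 at least 1.5-fold higher against 221 lower, where coding transcripts had a median of -0.03. The part of these differences in the ratios below was not tested, and in such bulk samples fewer cells of a type and less RNA per cell cannot be told apart.

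Promoter windows from RefSeq (GRCm38.p6, from 250 bases before to 50 bases after a start site) were found for 10 of the 10 genes, 15 windows in all. Of these, 10 held at least 20 CpG dinucleotides, a count reached by 26.5% of all 32841 windows. The GC content of the 15 windows went from 40.3% to 76.7%. The GC box, read as GGGCGG or on the other strand as CCGCCC, was found in 9 of 15 windows and in 35.7% of all windows. The CCAAT box (CCAAT or ATTGG) was in 6 windows, against 37.4% of all windows. Neither the cAMP response element TGACGTCA, the letters that Atf2 is known to recognise (1.79% of all windows), nor the TATA box TATAAA or TTTATA (13.6%) was found in any of the 15. A match is a description and not a binding site, and the absence of these letters says nothing of any factor.

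The following windows are shown because results below turn on them: Rapgef4, the gene with the fewest reads, Zak and Ola1, whose counting intervals lay on opposite sides of 0, and a far and a near start site of Wipf1 and of Chn1, for which the transcripts were also summed separately. Capitals mark GC boxes. The windows lie at chr2:71980965-71981264 (plus strand), chr2:72285451-72285750 (plus strand), chr2:73214398-73214697 (minus strand), chr2:73529438-73529737 and chr2:73485704-73486003 (minus strand), and chr2:73775297-73775596 and chr2:73660374-73660673 (minus strand), and are written from 5′ to 3′ along the gene.
Rapgef4: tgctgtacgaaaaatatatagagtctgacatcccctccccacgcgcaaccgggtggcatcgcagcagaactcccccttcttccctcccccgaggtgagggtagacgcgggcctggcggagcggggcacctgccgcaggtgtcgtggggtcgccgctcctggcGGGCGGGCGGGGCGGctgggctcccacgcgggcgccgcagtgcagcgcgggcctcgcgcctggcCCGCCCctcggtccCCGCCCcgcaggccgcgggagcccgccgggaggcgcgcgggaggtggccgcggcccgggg
Zak (B230120H23Rik): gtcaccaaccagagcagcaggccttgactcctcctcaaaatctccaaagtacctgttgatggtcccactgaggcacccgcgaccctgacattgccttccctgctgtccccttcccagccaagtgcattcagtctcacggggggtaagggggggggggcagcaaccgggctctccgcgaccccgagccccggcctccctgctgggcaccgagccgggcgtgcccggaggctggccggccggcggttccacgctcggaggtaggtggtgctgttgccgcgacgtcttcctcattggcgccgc
Ola1: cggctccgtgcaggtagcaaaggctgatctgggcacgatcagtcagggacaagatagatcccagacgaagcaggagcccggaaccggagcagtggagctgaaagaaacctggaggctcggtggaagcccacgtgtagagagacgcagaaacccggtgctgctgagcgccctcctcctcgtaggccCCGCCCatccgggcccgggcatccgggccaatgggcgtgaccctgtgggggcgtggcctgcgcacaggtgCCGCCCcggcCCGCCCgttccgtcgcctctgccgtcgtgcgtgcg
Wipf1, far start: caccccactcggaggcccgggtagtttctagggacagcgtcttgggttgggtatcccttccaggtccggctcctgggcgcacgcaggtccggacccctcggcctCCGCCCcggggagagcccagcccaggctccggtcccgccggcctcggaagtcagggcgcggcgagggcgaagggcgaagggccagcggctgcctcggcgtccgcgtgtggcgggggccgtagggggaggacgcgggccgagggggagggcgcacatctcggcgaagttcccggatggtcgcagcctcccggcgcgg
Wipf1, near start: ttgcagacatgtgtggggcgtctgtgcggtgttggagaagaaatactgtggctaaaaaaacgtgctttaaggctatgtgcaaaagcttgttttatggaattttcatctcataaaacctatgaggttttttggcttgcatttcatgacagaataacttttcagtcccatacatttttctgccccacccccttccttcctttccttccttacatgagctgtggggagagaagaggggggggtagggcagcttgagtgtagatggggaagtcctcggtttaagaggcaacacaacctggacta
Chn1, far start: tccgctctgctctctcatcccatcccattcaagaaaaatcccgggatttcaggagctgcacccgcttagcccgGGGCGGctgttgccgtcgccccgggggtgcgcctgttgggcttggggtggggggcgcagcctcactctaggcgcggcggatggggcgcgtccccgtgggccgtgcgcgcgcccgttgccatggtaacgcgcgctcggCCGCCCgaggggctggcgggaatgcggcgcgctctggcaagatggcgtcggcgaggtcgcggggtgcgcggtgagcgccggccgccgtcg
Chn1, near start: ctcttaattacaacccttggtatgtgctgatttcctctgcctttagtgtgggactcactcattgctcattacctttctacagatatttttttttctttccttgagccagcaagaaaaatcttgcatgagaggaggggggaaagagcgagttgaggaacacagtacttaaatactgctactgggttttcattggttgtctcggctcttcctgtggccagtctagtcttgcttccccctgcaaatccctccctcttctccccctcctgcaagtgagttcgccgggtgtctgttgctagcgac

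Rapgef4 had the most GC boxes of the 15 windows, 5, and 40 CpG. The far starts of Wipf1 and Chn1 had 37 and 43 CpG, whereas their near starts had 4 and 5. In RefSeq, Cir1 and Scrn3 are read in opposite directions from start sites 60 bases apart, so that their windows share 159 bases. The Scrn3 window (chr2:73312402-73312701, plus strand) is shown as an example of a promoter that 2 of the genes have in common, with the bases that are also in the Cir1 window in capitals.
Scrn3, shared with Cir1: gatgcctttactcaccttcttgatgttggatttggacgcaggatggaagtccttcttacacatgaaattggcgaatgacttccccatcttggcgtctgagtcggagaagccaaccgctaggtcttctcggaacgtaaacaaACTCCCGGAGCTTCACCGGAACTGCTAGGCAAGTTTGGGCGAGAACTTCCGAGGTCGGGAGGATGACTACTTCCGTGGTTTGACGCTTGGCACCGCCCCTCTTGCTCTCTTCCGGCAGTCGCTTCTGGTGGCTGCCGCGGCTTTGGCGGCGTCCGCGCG

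Across the 10 genes, the levels of both libraries lay close together. Their recovered reads summed to 7459 in wild type and 7457 with the inversion, or 0.0804% and 0.0788% of all reads. The log2 of the inversion value over the wild-type value, taken with a pseudocount of 1, had a median of -0.07 over the 10 genes, against -0.02 for the 16756 genes whose mean over both libraries reached 10 normalized reads, which include all 10. The pseudocount makes this scale understate differences of genes with few reads, such as Rapgef4. None of the 10 genes passed 1.5-fold in either direction. Among all genes passing this filter, 9.41% rose past 1.5-fold with the inversion and 2.04% fell past it. The means of all of the 10 but Rapgef4 reached 100. Of the 11831 genes at that level, 465 rose and 62 fell by as much. With shares this small, 10 genes are too few to tell whether they changed less often than others, which was not tested. Ratios were positive for Pdk1 and Zak and negative for the other 8 genes. Over all genes whose mean reached 10, 8946 of 16756 were negative.

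**Figure D1:**
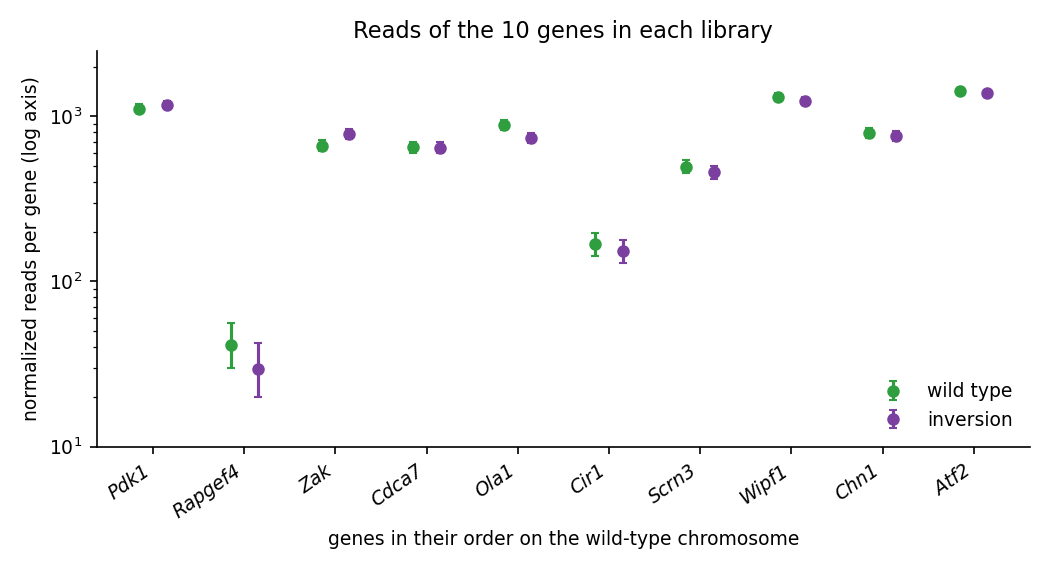
Normalized reads of each of the 10 genes (log axis) in the wild-type library (green) and the inversion library (purple), 1 library per genotype, with bars for the exact 95% Poisson counting interval. Levels ran from 29.6 normalized reads for Rapgef4 in the inversion library to 1419 for Atf2 in wild type, and the points of a gene lie close together except for Rapgef4, Zak and Ola1.

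Counting error alone was set by the exact 95% Clopper-Pearson interval of the share of a gene's reads that came from the inversion library, which compares these libraries and not the genotypes. This interval included 0 for 8 of the 10 genes. It lay wholly above 0 for Zak alone, as it did for 16.7% of all genes, and wholly below 0 for Ola1 alone, as it did for 13.0% of all genes. The SD of the 10 log2 ratios was 0.19, against 0.44 over all genes passing the filter and 0.28 over the 11831 genes whose mean reached 100. These wider SDs take in far outliers, the lowest ratio in both sets being that of Xist at -7.58. The quartiles were -0.14 and -0.02 for the 10 genes and -0.12 and 0.10 for the 11831 genes. Without Rapgef4, which has few reads, the median of the 9 others was -0.05 and the ratios ran from -0.27 to 0.23.

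**Figure D2:**
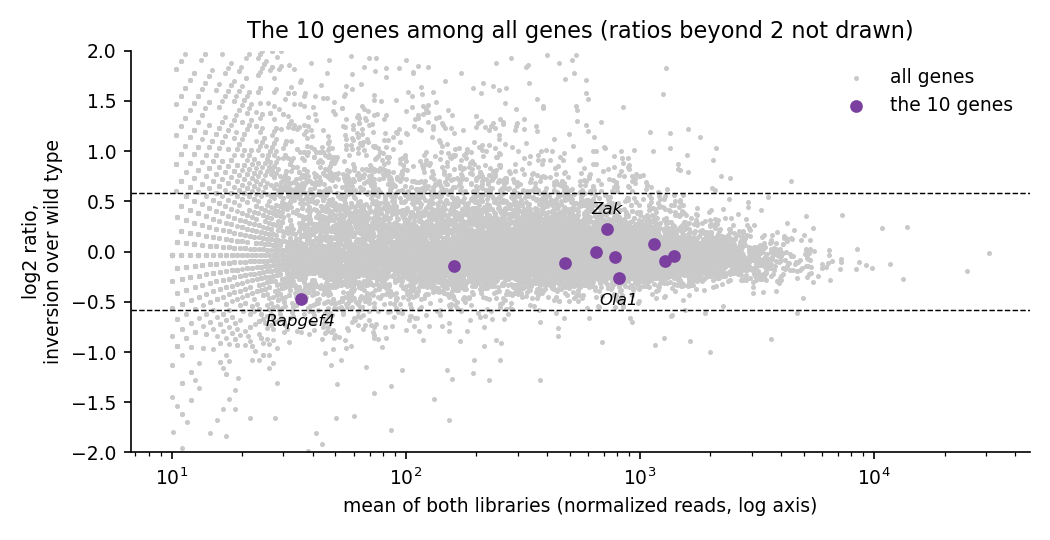
Log2 ratio (inversion over wild type) against the mean of both libraries (log axis, normalized reads) for all genes whose mean reached 10 (grey) and the 10 genes of the segment (purple), dashed lines marking 1.5-fold. All 10 lie between the dashed lines, with Zak the highest at 0.23, and Rapgef4, at -0.47, in the range of low reads where grey points spread widely.

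Pdk1 encodes a mitochondrial kinase that switches off pyruvate dehydrogenase. It lies nearest to the Itga6 breakpoint (chr2:71873224-71903858, plus strand, GRCm38) and had 1115 normalized reads in wild type and 1178 with the inversion. The log2 ratio was 0.08, with a 95% interval of -0.04 to 0.20. Its coding transcript went from 720 to 773 reads and its longer noncoding one from 381 to 399. A further noncoding transcript, ENSMUST00000148249, had 0 reads in wild type and 21 with the inversion, at least 6.83-fold higher against a floor of 3 reads. These 21 reads are few beside the 1193 of the gene, so that its sum hardly changed with them. Of the 5 relatives and partners listed for it (Pdk2, Pdk3, Pdk4, the dehydrogenase subunit Pdha1 and the phosphatase Pdp1), none was at least 1.5-fold changed. Only Pdha1 had an interval apart from 0, at -0.15 (-0.28 to -0.02).

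Ola1 encodes an Obg-like ATPase and lies at chr2:73092801-73218924 on the minus strand. It had 887 normalized reads in wild type (876 reads) and 738 with the inversion (747 reads), and thus a log2 ratio of -0.27 (95% interval -0.41 to -0.12). Of the genes that passed, 8.71% had a lower ratio. In size the difference was not unusual, since 82.5% of the genes whose mean reached 100 were no farther from 0. All 4 Ola1 transcripts were lower in the inversion library, with 399 and 355, 320 and 263, 139 and 115, and 18 and 14 reads. Whether reads from shared exons were counted for each transcript is not given, so the 4 may not be separate observations. The interval lay below 0 for only the noncoding ENSMUST00000152608, at -0.32 (-0.56 to -0.08), and that of the coding ENSMUST00000028517, at -0.20, just included 0 (-0.42 to 0.01). Its 2 start sites had log2 ratios of -0.26 (-0.41 to -0.10) and -0.31 (-0.68 to 0.06), with overlapping intervals. Among the related GTPases, Gtpbp5 had 0.53 (0.31 to 0.75) and Drg1 -0.14 (-0.27 to -0.01), while the intervals of Drg2 (0.04) and Gtpbp10 (-0.04) included 0.

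Scrn3 (chr2:73312601-73337818, plus strand) and Cir1 (chr2:73283105-73312701, minus strand) start from the shared window printed above. Scrn3 went from 497 normalized reads to 460, with a log2 ratio of -0.11 (95% interval -0.30 to 0.07). Cir1, a corepressor that binds the Notch effector Rbpj, went from 168 to 152, a log2 ratio of -0.14 (95% interval -0.47 to 0.18). The ratios of this pair thus differed by far less than their counting intervals. The main coding transcripts of Scrn3 had 231 and 211 reads, and 205 and 194. In GENCODE, which places the starts of Scrn3 and Cir1 otherwise than RefSeq, their 5′ ends overlap by 101 bases on opposite strands. Cir1 also overlaps the end of Sp9 by 1602 bases on the opposite strand. Sp9 itself went from 213 to 361 reads. Whether the assignment of reads to transcripts used the strand is not given in the sources used here, so reads from such overlaps cannot be told apart.

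Of the other secernins, Scrn1 had 605 and 456 reads (log2 ratio -0.44, interval -0.62 to -0.27) and Scrn2 329 and 319 (-0.08, interval including 0). Of 5 partners of Cir1, none was at least 1.5-fold changed. The histone deacetylase Hdac2 (-0.22) and the Rbpj-binding cofactor Snw1 (-0.39) had intervals below 0, whereas Rbpj (0.03), Sap30 (-0.21) and Sin3a (-0.05) did not.

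Rapgef4 encodes Epac2, an exchange factor that loads the small GTPase Rap when bound by cAMP. Its gene spans 276 kb (chr2:71981240-72257474, plus strand) and its start is turned towards HoxD on the inverted chromosome. It had 41.5 normalized reads in wild type (41 reads) and 29.6 with the inversion (30 reads). The log2 ratio of -0.47 had a 95% interval of -1.22 to 0.23, so that a difference was not detectable at this depth. Of all genes passing the filter, 3.04% had a lower ratio. None of its 5 transcripts had more than 13 reads in a library. The transcripts ENSMUST00000090826 and ENSMUST00000171878 had equal counts in both libraries, 13 and 9, so that the same reads may stand in both. The antisense genes Rapgef4os2 and Rapgef4os3 had 2 and 2, and 3 and 6 reads. Among 5 relatives and targets, Rapgef3, which encodes the other cAMP-bound factor Epac1, was at least 1.5-fold higher, with 177 and 282 reads (log2 ratio 0.63, interval 0.36 to 0.92). Rapgef1 (-0.06), Rapgef2 (0.10), Rap1a (-0.05) and Rap1b (-0.04) all had intervals that included 0.

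Zak encodes a MAP kinase kinase kinase upstream of JNK and p38, and mutations in it have been linked to limb malformation. The gene lies at chr2:72285637-72442610 on the plus strand, between Rapgef4 and Cdca7. It had 665 normalized reads in wild type (657 reads) and 778 with the inversion (788 reads), and a log2 ratio of 0.23 (95% interval 0.08 to 0.38). Of all genes passing the filter, 78.7% had a lower ratio. The difference was carried by the long transcript ENSMUST00000135469 of 6663 bases, which went from 543 to 673 reads (log2 ratio 0.27, interval 0.11 to 0.44). The short transcript ENSMUST00000090824 of 3334 bases had 114 and 115 reads (log2 ratio -0.02, interval -0.41 to 0.36), an interval that contains the ratio of the long one. Within the mixed-lineage kinases, Map3k12 was higher at 0.29 (0.13 to 0.47), and Map3k9, Map3k10, Map3k11 and Map3k13 had intervals that included 0. The 2 kinases below them in the cascade lay on opposite sides of 0, Map2k7 at 0.18 (0.06 to 0.31) and Map2k4 at -0.16 (-0.27 to -0.05). None of the 7 was at least 1.5-fold changed.

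Wipf1 encodes the WASP-interacting protein, which steers actin assembly. At chr2:73429610-73529734 on the minus strand, it had 1319 normalized reads in wild type and 1239 with the inversion (log2 ratio -0.09, 95% interval -0.20 to 0.02). The transcripts from its far, CpG-rich start had 733 and 691 normalized reads, and those from its near start had 586 and 546. Such sums are of whole transcripts, and whether a read from exons they have in common was counted for each is not given in the sources used here. The log2 ratios of both starts, -0.08 and -0.10, were therefore alike within their intervals (-0.24 to 0.07 and -0.27 to 0.07). Of its 4 relatives and partners, Wipf2 (-0.13) and Wipf3 (-0.46) had intervals below 0, and Was (-0.22, 24 and 21 reads) and Wasl (0.04) had intervals that included it.

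Chn1 encodes a chimaerin, a GTPase-activating protein for Rac that acts downstream of the receptor EphA4 in growing axons. It lies at chr2:73610660-73775346 on the minus strand and had 792 normalized reads in wild type and 765 with the inversion (log2 ratio -0.05, 95% interval -0.19 to 0.10). Its protein forms are known to be made from separate promoters, and reads were assigned to transcripts of both, with the same limit on shared exons as for Wipf1. Transcripts of the far start had 301 and 294 normalized reads (log2 ratio -0.03, interval -0.27 to 0.21), and those of the near start had 245 in each library (log2 ratio -0.00, interval -0.26 to 0.26). Transcripts from other annotated starts, with 91, 46, 5 and 101 wild-type reads, are not in these sums. Their log2 ratios were 0.03, -0.30, 0.38 and -0.22, with intervals that included 0. The antisense gene Gm13704, named Chn1os3 in GENCODE and overlapping the end of Chn1 by 5353 bases, went from 37 to 64 reads, and its reads cannot be told apart from those of Chn1 where strand is not used. For all 5 partners of Chn1 the ratio was below 0, between -0.08 and -0.01, and only Epha4, with 2592 and 2513 reads, had an interval below 0, from -0.16 to just under 0.

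Cdca7 encodes a zinc finger protein that recruits the chromatin remodeller Hells, and it is a target of Myc. At chr2:72476159-72486893 on the plus strand, it had 649 normalized reads in wild type and 646 with the inversion. Its log2 ratio of -0.01 (95% interval -0.17 to 0.15) was the nearest to 0 of the 10. Beneath this sum its transcripts differed in sign, and only ENSMUST00000130730 had an interval apart from 0. The main coding transcript ENSMUST00000102691 had 486 and 458 reads (log2 ratio -0.12, interval -0.31 to 0.07). The noncoding ENSMUST00000130730 had 41 and 71 (log2 ratio 0.74, interval 0.18 to 1.35) and ENSMUST00000127344 had 11 and 22 (0.90, interval -0.14 to 2.16). Of the rest, the noncoding ENSMUST00000137880 had 85 and 81 (-0.10) and the coding ENSMUST00000157019 had 18 and 22 (0.24). Hells was lower at -0.12 (-0.22 to -0.02), and Cdca7l (-0.15) and Myc (0.13) had intervals that included 0.

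Atf2 encodes a bZIP transcription factor that JNK and p38 phosphorylate, and is the gene of the 10 nearest to the TpSB1 breakpoint (chr2:73816509-73892639, minus strand). It was also the gene with the most reads, 1419 normalized reads in wild type and 1378 with the inversion. The log2 ratio was -0.04 (95% interval -0.15 to 0.07). None of its transcripts with a mean of at least 10 was 1.5-fold changed. ENSMUST00000124737 and ENSMUST00000167576 had nearly equal counts (247 and 248 wild-type reads, 242 and 241 reads with the inversion), so that transcripts of this gene may share reads. Among its relatives and kinases, Creb5 was lower at -0.37 (-0.55 to -0.18), and Atf7 (0.13), Jun (0.11), Mapk8 (0.09) and Mapk14 (-0.06) had intervals that included 0.

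Over the 45 relatives and partners together, all of which passed the filter, the median log2 ratio was -0.05, with 17 positive and 28 negative values. Of all 16756 genes passing the filter, 8946 were negative. Rapgef3 alone was at least 1.5-fold higher (9.41% of all genes), and 0 were at least 1.5-fold lower (2.04%). Their intervals lay above 0 for 4 of the 45 (16.7% of all genes) and below 0 for 11 (13.0%), which was not tested.

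At the level of single transcripts, 37 of the 50 reached a mean of 10 normalized reads and 13 did not. Of the 37, 3 were at least 1.5-fold higher, where 13.3% of the 45239 transcripts passing the filter were, and 0 were at least 1.5-fold lower, against 4.94%. The 3 were the noncoding transcripts of Pdk1 and Cdca7 named above. The counting interval lay above 0 for 3 of the 37 (14.0% of all transcripts), namely 1 each of Pdk1, Zak and Cdca7, and below 0 for 1 of Ola1 (9.21%). Over all coding transcripts the median was -0.03 and over all those of the processed, noncoding type 0.04. The 19 coding transcripts of the 10 genes had a median of -0.09 and their 13 processed ones -0.05.

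**Figure D3:**
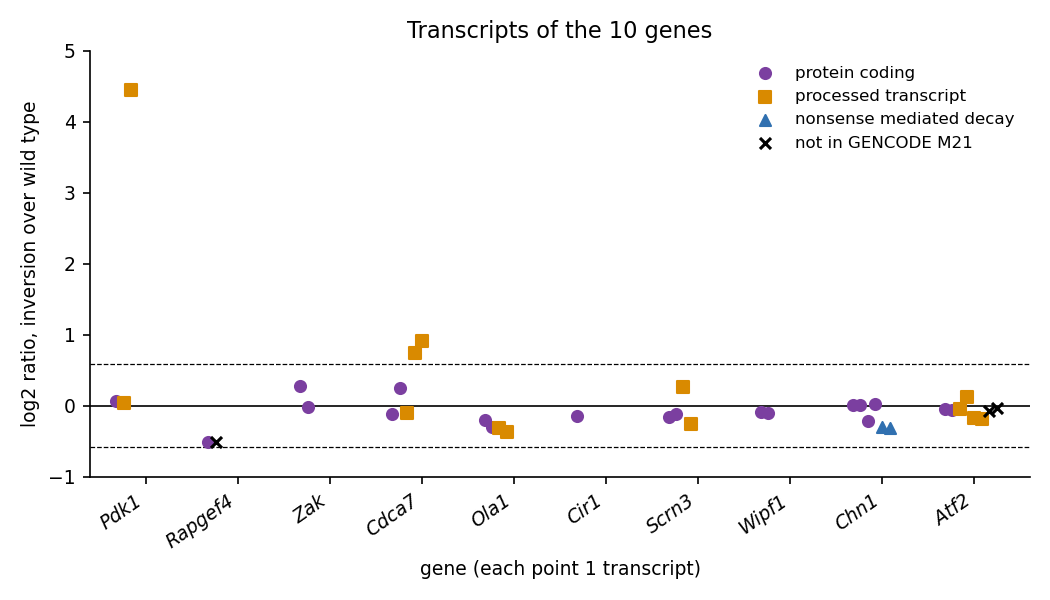
Log2 ratio (inversion over wild type) for each of the 37 transcripts of the 10 genes that reached a mean of 10 normalized reads, by annotated type, dashed lines marking 1.5-fold. The 3 points above the upper line are noncoding transcripts of Pdk1 (0 and 21 reads, so that its height depends on the pseudocount) and Cdca7.

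Compared per length, by the coding transcript with the highest mean, Cdca7 and Chn1 were the highest in wild type with 203 and 202 normalized reads per kb, followed by Ola1 with 186. The counting intervals of these 3 overlapped (185 to 222, 178 to 228 and 168 to 205). Below them came Wipf1 with 155 (144 to 167), Pdk1 with 141 (131 to 151) and Scrn3 with 123 (108 to 140), each overlapping its neighbour in this order, although Ola1 and Wipf1 did not overlap. Atf2 with 83.6 and Zak with 82.5 could not be put in order, while Cir1, with 59.6 (50.9 to 69.4), was lower than both. Rapgef4 had only 3.15 (1.68 to 5.38). The median over 23662 coding transcripts was 61.4 in wild type, with quartiles of 24.7 and 132. Of the 10 genes, 8 lay above it and Rapgef4 lay far below. The comparison is unlike, since this median takes in minor transcripts, whereas each gene stands here by its coding transcript with the highest mean. The short coding transcript of Zak, for example, had 34.6 in wild type. In the inversion library Zak, with 99.8 (92.4 to 108), stood above Atf2 with 80.5 (72.0 to 89.9). Chn1 with 202 (179 to 228) and Cdca7 with 187 (170 to 204) overlapped there, as did Cdca7 and Ola1 with 161 (145 to 179). The place of Chn1 rests on the choice of transcript, since its next coding transcript, ENSMUST00000102677, had 63.6 normalized reads per kb in wild type. The same holds for Scrn3, whose next coding transcript, ENSMUST00000090811, had 62.7 in wild type, with 205 reads against 231.

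Along the chromosome, counted from the start of Pdk1, the starts of Rapgef4, Zak and Cdca7 lie at 108, 412 and 603 kb, and those of Ola1, Cir1 and Scrn3, Wipf1, Chn1 and Atf2 at 1346, 1439, 1657, 1902 and 2019 kb. Both positive ratios, Pdk1 and Zak, fell in the part that is turned towards HoxD, together with the lowest, Rapgef4. Those of the 6 genes from Ola1 to Atf2 were all negative, from -0.27 to -0.04, but only the interval of Ola1 lay apart from 0. Of all 16756 genes passing the filter, 8946 were negative. The other genes of this stretch that passed the filter were positive, namely Sp9 (0.72), Gpr155 (0.10), Chrna1 (0.94), Gm13705 (0.52) and Gm13704 (0.74). Of the genes annotated on either side of the segment, Itga6 had 0.30 (0.19 to 0.41) and Lnp -0.36 (-0.49 to -0.23). Both were beyond the range of the 9 genes without Rapgef4, which was itself lower than Lnp at -0.47. The interval of Itga6 overlapped that of Zak (0.08 to 0.38), and the interval of Lnp overlapped that of Ola1 (-0.41 to -0.12). Farther out, Dlx1 and Dlx2 had 1.96 and 1.72, and Hoxd13 -0.61.

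**Figure D4:**
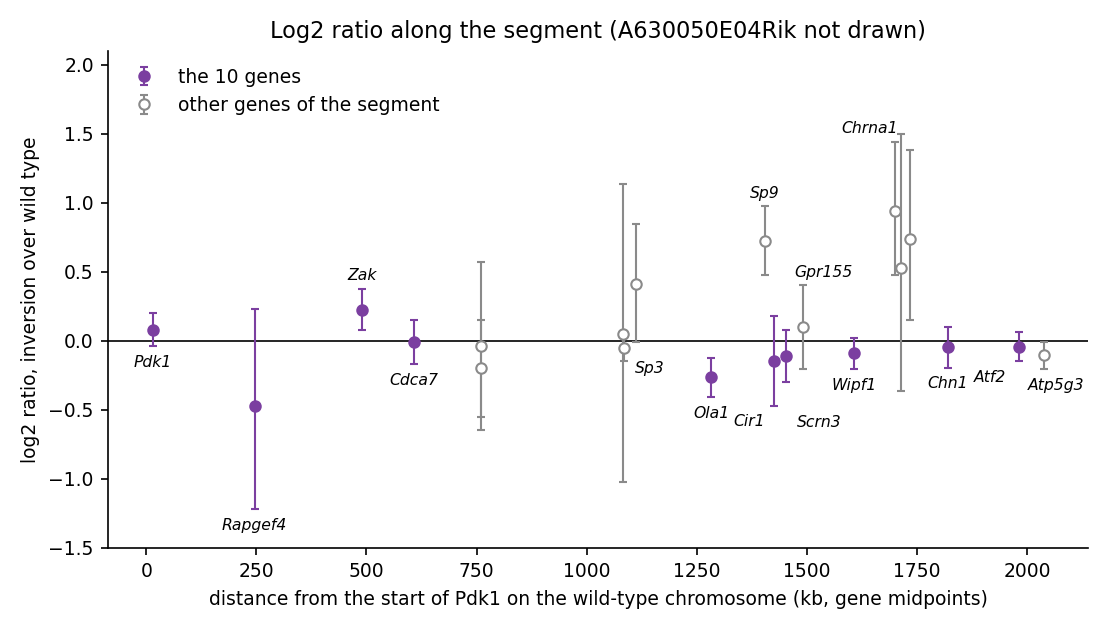
Log2 ratio (inversion over wild type) by gene midpoint (kb from the start of Pdk1 on the wild-type chromosome) for the 10 genes (purple) and the other genes of the segment passing the filter (open grey), with exact 95% counting intervals. Of the 10 genes, Rapgef4 lies lowest at -0.47, with a wide interval that includes 0, and the 9 others run from -0.27 to 0.23. Sp9, Chrna1 and the unlabelled Gm13704 beside Chrna1 lie higher, while A630050E04Rik, with 0 reads in wild type, is not drawn.

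The remaining genes between Itga6 and Lnp gave a less even picture. Of 23, 12 passed the filter, their median being 0.25, and 4 of these were at least 1.5-fold higher (9.41% of all genes), 0 lower by as much (2.04%). This median moved with the choice of genes, to -0.05 over the 5 genes whose mean reached 100 and to 0.10 over the 5 with protein-coding transcripts only. Sp9, a zinc finger factor of the limb ectoderm, had a log2 ratio of 0.72 (0.48 to 0.98). Chrna1, a subunit of the muscle acetylcholine receptor, went from 56 to 111 reads, 0.94 (0.47 to 1.44), next to the 1.97-fold higher sum of the 7 muscle genes, and the part of muscle tissue in this was not tested. Gm13704 had 0.74 (0.15 to 1.38). The noncoding A630050E04Rik, which lies between Atp5g3 and Lnp on an unknown side of the breakpoint, had 0 wild-type reads and 55 reads with the inversion, at least 17.9-fold higher against a floor of 3 reads. The coding neighbours Sp3 (1716 and 1698 reads, -0.05) and Gpr155 (175 and 192 reads, 0.10) had intervals that included 0, and that of Atp5g3 lay just below it (-0.11, -0.20 to -0.01). Whether the 10 genes and their neighbours differ as groups was not tested.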

How the data were processed

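E12.5 distal forelimb RNA was sequenced as 100-base single-end reads (TruSeq Stranded, poly(A) selection), and the authors mapped them to NCBIM37 (mm9) with the HTSstation pipeline. The submitters' processing notes name Bowtie2. The deposited signal columns hold the reads of each transcript, scaled with 1 size factor for each library. The authors' fold change, log2, p and adjusted p columns were not used, and 0 per-sample columns were left unmapped. The paper's methods give RPKM, but whole reads were recovered from 100% of values (tolerance 0.05 reads), and 0.5, written for no reads, was read as 0. Transcripts were summed by symbol and chromosome. Genes had a mean of at least 10 normalized reads to be counted. Intervals are exact 95% intervals and cover counting error only. They take each read as counted once, and those of gene sums would be too narrow if transcripts shared reads. Positions and types come from GENCODE M21 (GRCm38, another build than the mapping), through transcript identifiers, of which 88.1% matched in all and 46 of 50 for these genes. No coordinate was converted.

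Named are all 10 genes with their transcripts, the other genes of the segment, genes beside the breakpoints, and lists of relatives, partners and tissue markers. The members and lists were chosen with earlier results of these data known. For 1 marker gene the result is not reported here. Alternatives covered scaling (total, upper quartile, TMM of edgeR 4.0.16), pseudocounts of 5 and 0.1, filters, transcript choice, fold thresholds, a shorter segment and an exact binomial test on recovered reads. The steps were tested on simulated data. Calculations used scipy 1.17.1, pandas 2.3.3 and numpy 2.4.6 under Python 3.11.15, with R 4.3.3 for edgeR and matplotlib 3.10.9 for plots.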

Additional observations from a re-analysis of the deposited data

How the results depend on the processing

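No paired analysis was possible because each genotype had 1 library, and for the same reason no replicate could be left out. The median log2 ratio of the 10 genes stayed between -0.10 and -0.05 over 9 alternatives, while that of all genes stayed between -0.04 and -0.00. Scaling moved all genes by 0.01 (total), -0.02 (upper quartile) or -0.00 (TMM of edgeR). Under 7 alternatives for each gene, none of 70 values left the main counting interval. Shifts from scaling and pseudocounts were small beside these intervals, so that mainly the choice of transcripts could have moved a value out. Of the 70 values, 2 changed sign, Cdca7 to 0.00 with the total and Chn1 to 0.00 with the transcript of the highest mean. With that transcript alone the interval of Ola1 included 0, and at a mean of at least 100 Rapgef4 was lost and 9 genes remained. Against 0 of the 10 past 1.5-fold, 2 (Ola1 and Rapgef4) were past 1.2-fold, and 2 (Zak and Ola1) passed an exact binomial test with Benjamini-Hochberg adjustment, which compares the reads of these libraries and not the genotypes. Over all 16756 genes that test called 2068 higher and 1318 lower, against 1577 and 341 by fold. The 1577 genes at least 1.5-fold higher became 1019 with protein-coding transcripts only, 4408 without a filter, 465 at a mean of at least 100, 668 at 2-fold and 3247 at 1.2-fold. The 341 lower genes became 1716 without a filter, 62 at a mean of at least 100, 81 at 2-fold and 1489 at 1.2-fold. The median of the other genes of the segment, 0.25, was 0.39 without a filter, 0.10 with protein-coding transcripts only, 0.10 with the segment ending at Atp5g3 and -0.05 at a mean of at least 100. With 41 and 30 reads, depth limits Rapgef4 most.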
